A study of Mus musculus with 22 samples.

Results

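Lipid-storing fat cells lie just below the dermis of mouse back skin, and 10 genes of the adipocyte programme were followed in fibroblasts sorted from that skin. The 10 genes are Pparg, Lpl, Fabp4, Cfd, Cidec, Adipoq, Plin1, Car3, Lep and Retn, found by symbol among the 55414 genes of the deposited count table. All 10 were present, and 9 had enough counts to be tested, Lep being the exception. The genes were selected on earlier results that included day 4, when Cfd and Cidec were among the largest rises. Values of these 10 genes that use day 4 libraries are therefore given as a description without a p-value, whereas genes outside the list keep theirs. The other lists were also chosen with earlier results of these data known, so their day 4 p-values are not independent support for the 10 genes.

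The 22 libraries came from skin of mice 1, 2 or 4 days after an operation in which a path was opened under the back skin. EXP mice received an expander hydrogel near the neck, and CTRL mice had the operation with nothing inserted, so a response to the wound is shared by both arms and no unoperated skin was analysed here. The CTRL arm has 4, 3 and 4 libraries on days 1, 2 and 4, and the EXP arm has 5, 3 and 3. Strain, sex and age are not given in the labels used here. Cells with CD31, CD45, CD117 or EpCAM on their surface were sorted out and live cells with CD34 and PDGFRα were kept. The labels number the libraries without saying whether each came from its own mouse, so p-values measure the spread between libraries, which may be technical in part.

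Adipocytes arise from PDGFRα-expressing mesenchymal cells. Pparg encodes a nuclear receptor that pairs with RXR and drives fat cell differentiation together with C/EBP transcription factors. Lpl, a secreted lipase that frees fatty acids from circulating triglyceride, and Fabp4, a fatty acid carrier in the cytosol, come on early in differentiation. The other 7 genes mark the mature, lipid-filled cell. Cidec and Plin1 encode proteins of the lipid droplet surface, Car3 encodes a cytosolic carbonic anhydrase that muscle also makes, and Cfd encodes adipsin, a secreted protease of the complement system. Adipoq, Lep and Retn encode the circulating hormones adiponectin, leptin and resistin.

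The 250 bases before RefSeq start sites (GRCm38.p6) are shown for the windows in which a C/EBP-like motif was found, and for Adipoq, in whose window it was not. Capitals mark matches to TTGCNNAA, searched on both strands, and the second capitalised stretch of Pparg is a match on the opposite strand. The windows are Pparg chr6:115421816-115422065 (plus strand, the most downstream of its 3 starts), Plin1 chr7:79732777-79733026 (minus), Cidec chr6:113434765-113435014 (minus, the downstream of 2 starts), Lep chr6:29059971-29060220 (plus) and Adipoq chr16:23146286-23146535 (plus).
Pparg: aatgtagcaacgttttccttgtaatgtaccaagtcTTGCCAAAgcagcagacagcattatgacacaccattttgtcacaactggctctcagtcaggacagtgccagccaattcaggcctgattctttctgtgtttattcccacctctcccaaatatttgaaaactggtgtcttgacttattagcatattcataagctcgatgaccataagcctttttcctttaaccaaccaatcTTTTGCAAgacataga
Plin1: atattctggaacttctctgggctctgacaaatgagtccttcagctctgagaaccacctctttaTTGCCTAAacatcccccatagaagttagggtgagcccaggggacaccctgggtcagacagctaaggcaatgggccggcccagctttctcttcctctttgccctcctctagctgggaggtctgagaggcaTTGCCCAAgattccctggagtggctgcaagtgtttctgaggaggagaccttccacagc
Cidec: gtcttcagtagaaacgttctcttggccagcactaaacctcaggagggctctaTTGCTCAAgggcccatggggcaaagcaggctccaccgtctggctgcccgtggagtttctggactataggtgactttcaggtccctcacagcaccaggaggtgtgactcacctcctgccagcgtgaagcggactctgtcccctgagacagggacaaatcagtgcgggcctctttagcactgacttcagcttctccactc
Lep: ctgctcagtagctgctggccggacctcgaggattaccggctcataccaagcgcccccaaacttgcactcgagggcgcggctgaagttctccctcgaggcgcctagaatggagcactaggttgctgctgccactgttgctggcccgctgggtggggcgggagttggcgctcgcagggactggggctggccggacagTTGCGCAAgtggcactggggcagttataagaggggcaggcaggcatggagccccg
Adipoq: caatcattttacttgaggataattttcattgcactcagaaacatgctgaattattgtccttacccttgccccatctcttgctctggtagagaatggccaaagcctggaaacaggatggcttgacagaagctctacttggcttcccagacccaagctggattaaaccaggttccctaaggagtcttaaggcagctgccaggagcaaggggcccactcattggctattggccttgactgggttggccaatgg

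The promoter table held 10 windows for 7 of the 10 genes, and Lpl, Fabp4 and Car3 had no entry. TTGCNNAA occurred in 4 of these 10 windows, 1 each for Pparg, Plin1, Cidec and Lep, and in 9.56% of all 32851 windows of the same length. The nuclear receptor hexamer AGGTCA, searched on both strands, occurred in 2 of the 10, both of Pparg, and in 14.0% of all windows. The PPAR response element AGGNCANAGGNCA, which can contain that hexamer, occurred in 0 of the 10 and in 0.338% of all windows. These matches describe letters in short windows and say nothing of binding.

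Library totals ran from 21461294 to 30210204 counts, and levels below are CPM, counts rescaled to a common total after TMM scaling (trimmed mean of M-values, edgeR). On that scale 3 counts, taken as the floor against which bounds are given, equalled 0.0804 to 0.157 CPM, and floors and intervals of this kind cover counting error only. The 7 fibroblast markers summed to 137800 to 191100 CPM in CTRL and 73640 to 117000 in EXP on day 1, to 236100 to 288400 and 48360 to 119900 on day 2, and to 188000 to 248500 and 40740 to 184700 on day 4, so that EXP lay below CTRL without overlap on each day. Most of this sum came from Col1a1 and Col1a2, with means of 70590 and 65150 CPM over the 22 libraries. Of these 7 markers 3, 4 and 3 were called lower and 1 higher on days 1, 2 and 4. The gene called higher was Pdgfra each time, though its day 4 call was lost in 5 of 7 fits with a library left out. Lower calls were lost for Col1a1 in 6 and Col1a2 in 7 of 9 such fits on day 1. On day 2 they were lost in 1 of 6 for each of these 2 genes and in 5 of 6 for Dcn. On day 4 that of Col1a1 was lost in 5 of 7. The lower calls of Cd34 on days 1 and 2 and of Dcn and Lum on day 4 were lost in 0 fits. The part of the difference between the arms in the results below was not tested. A split of the libraries that followed 192 genes correlated with Rnf10 put CTRL 1, 2 and 3 and EXP 1 and 2 of day 1 and CTRL 3 and 4 of day 4 on its upper side and all other libraries on its lower side. Fewer cells of a type and less RNA per cell cannot be told apart in such bulk samples, and the part of RNA carried over from adipocytes in any level below was not tested.

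**Figure D1:**
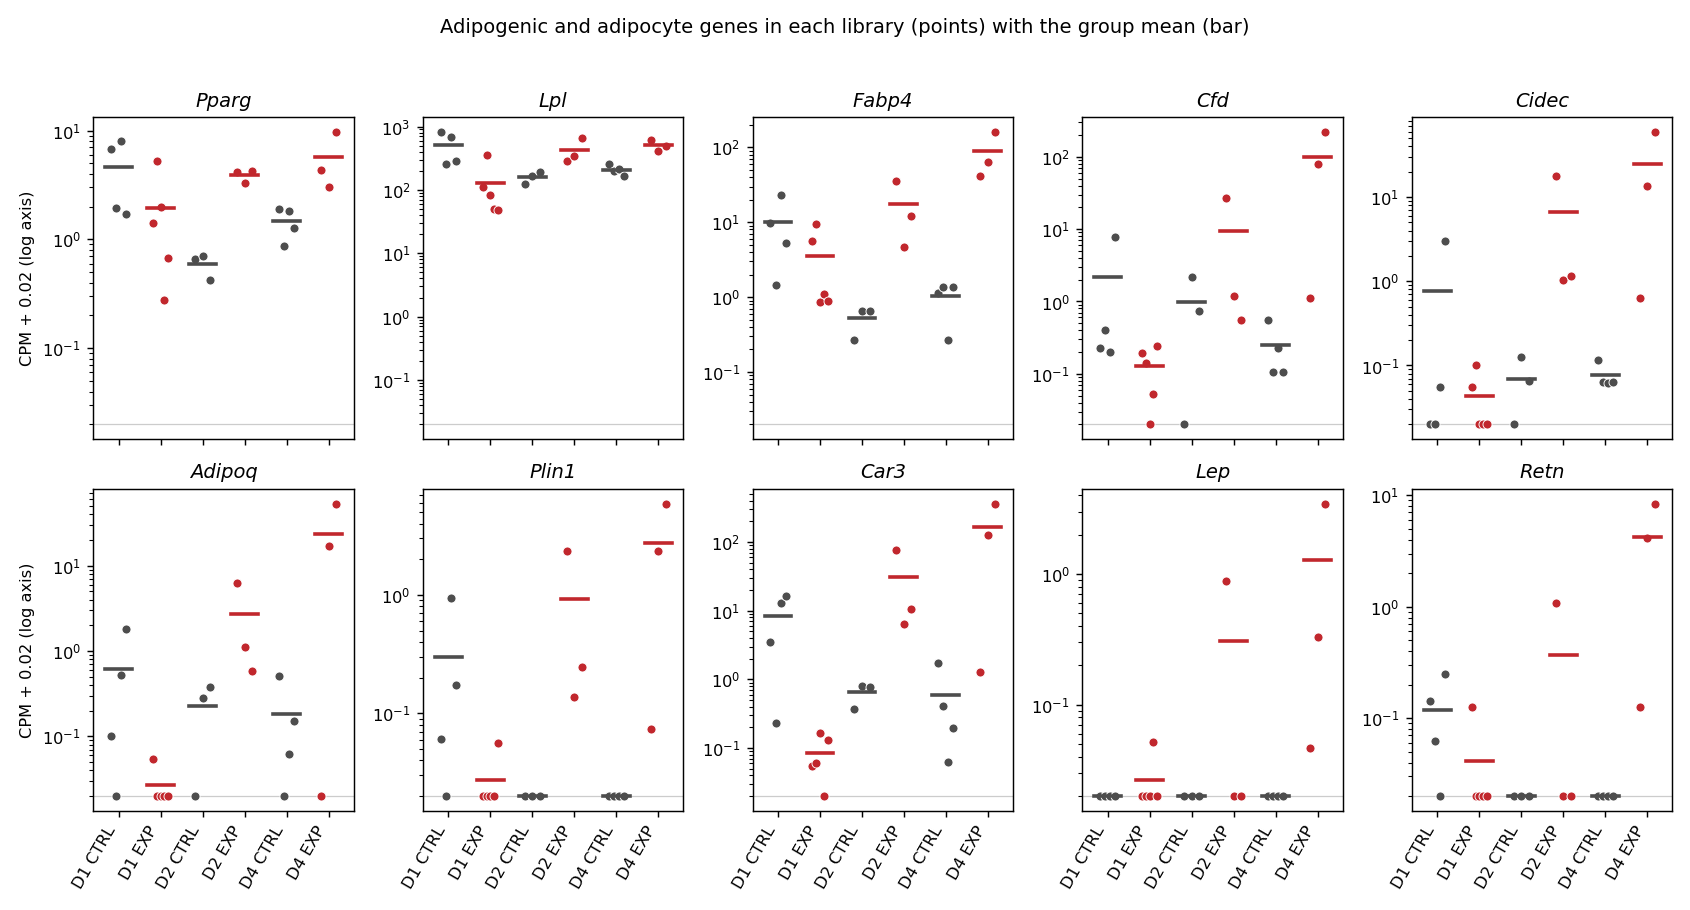
Level of each gene in every library (point) with the group mean (bar), as CPM + 0.02 on a log axis whose grey line marks 0 CPM, for CTRL (grey) and EXP (red) on days 1, 2 and 4 (D1, D2, D4; n = 4, 5, 3, 3, 4 and 3 from left to right). Pparg, Lpl and Fabp4 were high in all 3 EXP libraries of day 4, whereas Adipoq ran from 0 to 52.9 CPM among the same 3.

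On day 1 Lpl and Car3 fell in EXP, and the other 7 tested genes lay below CTRL on the fitted scale without passing the test. By edgeR's quasi-likelihood test at a Benjamini-Hochberg adjusted p under 0.05, 2 of the 9 tested genes were called lower where 14.7% of all 17554 tested genes were, and 0 were called higher where 13.9% of all genes were. At an unadjusted p under 0.05 there were 7 lower and 0 higher, DESeq2 called 5 and 0, and limma voom called 2 and 0. The lower count was 4 without CTRL library 1, 5 without CTRL library 2 and 4 without EXP library 2 of that day. A count of 2 of 9 is close to the share among all genes, so the day 1 result rests on the 2 named genes and not on the list.

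Lpl was by far the most abundant of the 10 genes. On day 1 its CTRL libraries held 819, 253, 689 and 282 CPM, and its EXP libraries held 109, 360, 82.0, 49.2 and 47.3 CPM. All EXP libraries but library 2 lay below every CTRL library. The log2 fold change was -1.98 (SE 0.50, edgeR adjusted p = 0.00618), from a mean of 511 ± 286 CPM (SD, n = 4) to 130 ± 131 CPM (SD, n = 5). Without EXP library 2 it was -2.83. Among the 5 libraries on the upper side of the split the change was -1.33 with an edgeR adjusted p of 0.193. Among the 4 on the lower side it was -2.25. CTRL library 4 was the only CTRL library there, so no p-value is given.

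Car3 showed the widest gap of that day. Its CTRL libraries held 3.46, 0.212, 13.1 and 16.6 CPM and its EXP libraries 0.0349, 0.0404, 0.145, 0 and 0.109 CPM, with no overlap and at most 4 counts in any EXP library. The log2 fold change was -6.91 (SE 1.56, edgeR adjusted p = 0.00289). Among the lower-side libraries, where CTRL library 4 was the only CTRL library of day 1, the change was -7.59.

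The master regulator followed with a wide spread. Pparg held 6.76, 1.91, 8.08 and 1.69 CPM in CTRL and 1.40, 5.29, 1.96, 0.255 and 0.656 CPM in EXP on day 1. The arms overlapped, and the log2 fold change of -1.28 (SE 0.61, edgeR adjusted p = 0.121) did not pass the test. Fabp4 held 9.76, 1.44, 23.2 and 5.21 CPM in CTRL and 5.55, 9.45, 0.835, 1.08 and 0.875 CPM in EXP, a log2 fold change of -1.49 with an edgeR adjusted p of 0.166. EXP library 2 was the highest EXP library for Lpl, Pparg and Fabp4 alike.

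The remaining mature genes were near the floor in EXP on day 1 and depended on single CTRL libraries. Adipoq held 0.0824, 0, 0.501 and 1.80 CPM in CTRL and at most 1 count in any EXP library (edgeR adjusted p = 0.0502), and its CTRL mean was at least 5.52-fold above the floor, or 1.80-fold without CTRL library 4. Cfd held 7.78 CPM in CTRL library 4 and 0.179 to 0.381 CPM in the other 3, against 0 to 0.219 CPM in EXP (edgeR adjusted p = 0.0641). The droplet genes split between 2 libraries, since Cidec held 2.99 CPM in CTRL library 4 and at most 1 count in the others (edgeR adjusted p = 0.0564), whereas Plin1 held 0.930 CPM in CTRL library 3 and 0.153 CPM in library 4 (edgeR adjusted p = 0.0571). Retn reached 6 counts in CTRL library 4, and Lep had 1 count among all 9 libraries.

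On day 2 Pparg, Fabp4, Cidec and Car3 rose in EXP, and the other 5 tested genes lay above CTRL on the fitted scale without passing the test. Cfd, Adipoq, Plin1 and Retn depended on EXP library 1. Without it the fitted log2 change was -0.14 for Cfd (3.33 with it) and 1.97 for Adipoq (3.64). Plin1 was then at least 1.18-fold above the floor (6.10-fold with it), and Retn had 0 counts in both arms. Of the 9 tested genes 4 were called higher, where 7.72% of all genes were, and 0 were called lower where 5.71% of all genes were. At an unadjusted p under 0.05 there were 8 higher and 0 lower, DESeq2 called 5 and 0, and limma voom called 3 and 0. Without EXP library 1 of day 2 edgeR called 0 of the 9, and without any 1 of the 3 CTRL libraries it called 1.

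Pparg separated the arms with little spread on day 2. It held 0.647, 0.679 and 0.404 CPM in CTRL and 4.16, 3.30 and 4.21 CPM in EXP. The groups did not overlap, and the log2 fold change was 2.75 (SE 0.83, edgeR adjusted p = 0.0314). The change stayed between 2.53 and 2.88 when any single library was left out, with an edgeR adjusted p of 0.0440 without EXP library 2 and of 0.0723 to 0.113 without each of the others.

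Fabp4 had the larger change and the larger spread. It held 0.249, 0.626 and 0.629 CPM in CTRL and 35.1, 4.60 and 12.1 CPM in EXP, so that every EXP library exceeded every CTRL library. The log2 fold change was 5.09 (SE 1.20, edgeR adjusted p = 0.00925), and 4.05 with an edgeR adjusted p of 0.0575 without EXP library 1. Lpl held 123, 166 and 190 CPM in CTRL and 284, 349 and 658 CPM in EXP, also without overlap. Its log2 fold change of 1.43 (SE 0.61, edgeR adjusted p = 0.132) did not pass the test.

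Of the mature genes, Car3 and Cidec passed on day 2. Car3 held 0.348, 0.783 and 0.764 CPM in CTRL and 75.8, 6.49 and 10.4 CPM in EXP, a log2 fold change of 5.60 (SE 1.59, edgeR adjusted p = 0.0253). Cidec had at most 2 counts in any CTRL library against 17.6, 1.02 and 1.14 CPM in EXP, at least 44.9-fold higher than the floor (edgeR adjusted p = 0.0312). EXP library 1 was highest for both, and without it the log2 fold change of Car3 was 3.73 (edgeR adjusted p = 0.168) and Cidec was at least 7.35-fold above the floor (edgeR adjusted p = 0.251).

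The secreted products and Plin1 did not pass on day 2. Adipoq held 0, 0.261 and 0.359 CPM in CTRL and 6.30, 1.10 and 0.569 CPM in EXP, without overlap (log2 fold change 3.64, edgeR adjusted p = 0.157). Cfd held 0, 2.14 and 0.719 CPM in CTRL and 26.7, 1.18 and 0.531 CPM in EXP, with overlap (edgeR adjusted p = 0.195). Plin1 had 0 counts in all 3 CTRL libraries and 71, 3 and 6 counts in EXP, at least 6.10-fold above the floor (edgeR adjusted p = 0.0600), or 1.18-fold without EXP library 1. Lep and Retn had 26 and 32 counts in EXP library 1 and 0 in the other 5 libraries of that day.

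The size of the EXP effect differed between days 1 and 2 for most of the list. For 6 of the 9 tested genes the effect on day 2 minus that on day 1 was called above 0, where 2.48% of all genes were, and for 0 it was called below 0, where 0.484% of all genes were; the counts at an unadjusted p under 0.05 were 9 and 0, by DESeq2 8 and 0, and by limma voom 3 and 0. The difference was 3.41 for Lpl (SE 0.80, edgeR adjusted p = 0.0284), 4.03 for Pparg (SE 1.02, edgeR adjusted p = 0.0372) and 6.58 for Fabp4 (SE 1.43, edgeR adjusted p = 0.0189) on the log2 scale. Car3 differed by 12.51 (SE 2.31, edgeR adjusted p = 0.00683), and Cidec and Plin1 also passed with edgeR adjusted p of 0.0284 and 0.0439, though their fitted sizes depend on groups at the floor. Cfd, Adipoq and Retn did not pass, with edgeR adjusted p of 0.0910, 0.0679 and 0.207. Without any 1 of the 3 CTRL libraries of day 2 the count was 1, and without EXP library 1 of day 2 it was 2; it was 3 without CTRL library 1 or 3 of day 1 or EXP library 3 of day 2.

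**Figure D2:**
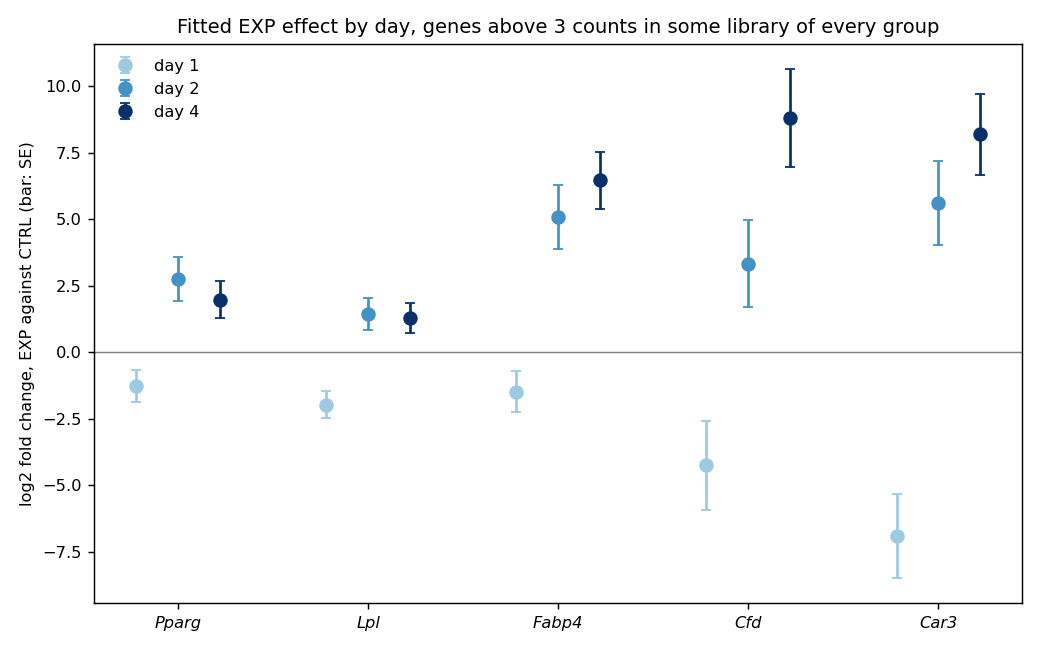
Fitted log2 fold change of EXP against CTRL (point) with its SE (bar) on days 1, 2 and 4 for the 5 genes with more than 3 counts in some library of every group. All 5 lie below 0 on day 1 and above 0 on days 2 and 4, and Car3 runs from -6.91 to 8.19; the day 4 values took part in the choice of the genes.

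The change from day 1 to day 2 was then read within each arm. Within EXP, Cfd, Cidec, Adipoq and Car3 rose from day 1 to day 2, 4 of 9 tested genes where 2.27% of all genes were called higher, and 0 were called lower where 0.359% of all genes were. Car3 changed by 8.80 on the log2 scale (SE 1.60, edgeR adjusted p = 0.00538) and Cfd by 6.40 (SE 1.67, edgeR adjusted p = 0.0466). Cidec was at least 61.1-fold and Adipoq at least 24.6-fold higher than the day 1 floor (edgeR adjusted p = 0.0174 and 0.0368). Without EXP library 1 of day 2 the change was 6.93 for Car3 and 2.93 for Cfd, and the bound 7.74-fold for Adipoq. Cfd, Adipoq and Cidec did not pass in that fit (edgeR adjusted p = 0.185 for Cidec). The calls of Cfd and Adipoq were lost in 8 of 8 fits with a library left out. That of Cidec was lost in 3 of 8 and that of Car3 in 0 of 8. The count was 1 without EXP library 1 of day 2 or EXP library 1 or 3 of day 1, 3 without EXP library 2 of day 1, and 2 without each of the other 4.

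Within CTRL, 0 of the 9 genes were called between days 1 and 2 in either direction by edgeR, where 0.0798% of all genes were called higher and 0.216% lower. At an unadjusted p under 0.05 there were 5 lower and 0 higher, DESeq2 called 3 lower, and limma voom called 2 lower. Of all 17554 tested genes 2534 had an unadjusted p under 0.05 in either direction. The 3 early genes did not overlap between the 2 days in CTRL, and all lay lower on day 2. The share of all genes without overlap was not counted, so nothing is read from the lack of overlap. Pparg differed by -3.00 (SE 0.81, edgeR adjusted p = 0.108), Fabp4 by -4.29 (SE 1.16, edgeR adjusted p = 0.113) and Lpl by -1.68 (SE 0.59, edgeR adjusted p = 0.207) on the log2 scale. Of the CTRL libraries, 3 of the 4 of day 1 were on the upper side of the split and none of day 2 were, so day and split cannot be told apart for most of these libraries.

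On day 4, which took part in the choice of the genes, the EXP arm held the highest group mean of the series for 9 of the 10 genes, the exception being Lpl. Of the 9 tested genes 8 were called higher, where 12.8% of all genes were, and 0 were called lower, where 9.66% of all genes were. Lpl was again the exception. Nothing is read from these counts.

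The early genes were up in all 3 EXP libraries of day 4. Fabp4 held 1.11, 1.33, 0.251 and 1.34 CPM in CTRL and 41.7, 64.1 and 160 CPM in EXP, a log2 fold change of 6.46 (SE 1.06). Pparg held 1.89, 0.858, 1.80 and 1.26 CPM in CTRL and 4.29, 2.98 and 9.67 CPM in EXP, a log2 fold change of 1.96 (SE 0.70). Lpl held 253, 200, 210 and 165 CPM in CTRL and 615, 407 and 490 CPM in EXP, a log2 fold change of 1.28 (SE 0.56). The arms did not overlap for any of these 3 genes, and the share of all genes without overlap was not counted.

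The mature genes divided the same 3 EXP libraries. Adipoq held 0, 16.8 and 52.9 CPM in EXP libraries 1, 2 and 3 and at most 0.484 CPM in CTRL. Car3 held 1.26, 129 and 360 CPM in EXP against 0.0419 to 1.69 CPM in CTRL, and Cfd held 1.10, 79.9 and 220 CPM against 0.0858 to 0.532 CPM. EXP library 1 was within the CTRL range for Adipoq and Car3 and just above it for Cfd, while it was the highest library of the day for Lpl.

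The droplet genes and the other hormones followed Adipoq. Cidec held 0.616, 13.7 and 59.3 CPM in EXP and at most 2 counts in any CTRL library, at least 186-fold above the floor. Plin1 held 2, 67 and 164 counts, Retn 4, 119 and 234 counts and Lep 1, 9 and 96 counts in EXP libraries 1, 2 and 3, all with 0 counts in the 4 CTRL libraries. Against the floor these are means at least 20.7-fold, 31.7-fold and 9.49-fold higher. Without EXP library 3 the bounds were 54.1-fold for Cidec, 8.99-fold for Plin1, 16.0-fold for Retn and 1.28-fold for Lep. The log2 fold changes of Cfd, Car3 and Adipoq were 8.79 (SE 1.84), 8.19 (SE 1.53) and 7.16 (SE 1.60).

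**Figure D3:**
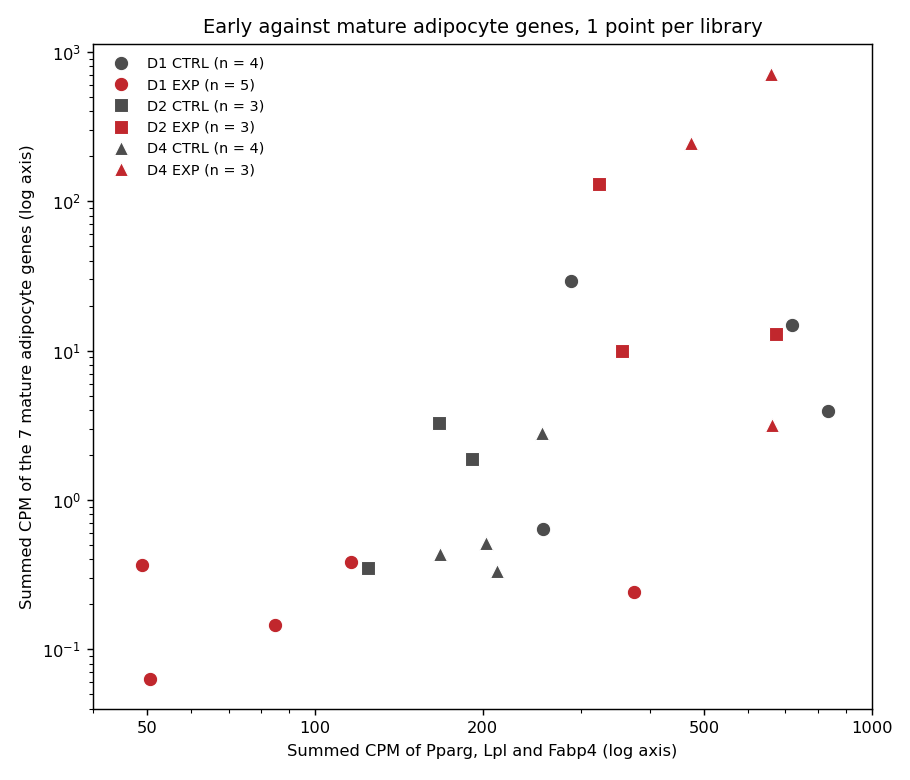
Summed CPM of Pparg, Lpl and Fabp4 (horizontal, log axis) against summed CPM of the 7 mature adipocyte genes (vertical, log axis), 1 point per library, with CTRL in grey and EXP in red and days 1, 2 and 4 as circles, squares and triangles. EXP libraries 1 and 3 of day 4 have early sums of 661 and 660 CPM but mature sums of 3.16 and 710 CPM.

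Summed over roles, the early sum and the mature sum followed different libraries. Fabp4 by itself ranked the EXP libraries of day 4 and of day 2 in the order of the mature sum. Pparg did so on neither day, though EXP library 3 of day 4 was highest for both Pparg and the mature sum. The early sum, most of which is Lpl, was 474 to 661 CPM in EXP and 168 to 256 CPM in CTRL on day 4, and 323 to 674 CPM in EXP and 124 to 192 CPM in CTRL on day 2. The mature sum was 3.16, 246 and 710 CPM in EXP on day 4 and 0.335 to 2.80 CPM in CTRL. On day 2 it was 131, 9.91 and 12.9 CPM in EXP and 0.348, 3.29 and 1.89 CPM in CTRL. On day 1 it was 3.91, 0.635, 14.8 and 29.5 CPM in CTRL and 0.064 to 0.384 CPM in EXP.

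After the group means were removed, the 9 tested genes fell into 2 blocks by their log2 CPM over the 22 libraries. The 6 tested mature genes correlated with each other at 0.643 to 0.911. Pparg correlated with Lpl at 0.801, Lpl with Fabp4 at 0.601 and Pparg with Fabp4 at 0.574. Lpl correlated with the mature genes at -0.225 to 0.005, and Fabp4 stood between the blocks at 0.307 to 0.540. These values describe libraries that share totals and scaling, and the mature genes have few counts in most of them.

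**Figure D4:**
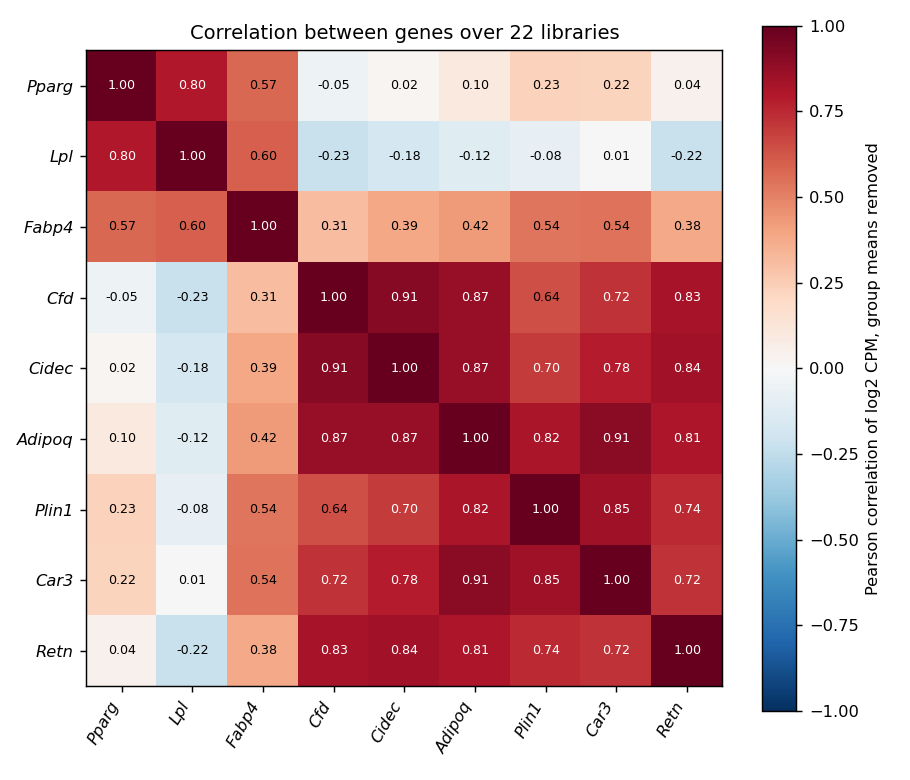
Pearson correlation of log2 CPM (prior count 2) between the 9 tested genes over 22 libraries after removal of the 6 group means, from blue (-1) to red (1). The 6 mature genes form a block at 0.643 to 0.911, and Lpl lies at -0.225 to 0.005 with each of them.

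Per kilobase of the longest coding transcript, the order of levels changed with the group. In CTRL on day 4 Lpl led at 50.3 ± 8.79 CPM per kb (SD, n = 4), followed by Fabp4 at 1.13 ± 0.576 and Pparg at 0.682 ± 0.228, and the other 7 genes lay at 0.341 or below. In EXP on day 4 Lpl at 123 ± 25.4, Cfd at 109 ± 120, Fabp4 at 99.0 ± 70.3 and Car3 at 97.3 ± 108 CPM per kb (SD, n = 3) did not differ beyond their spread. Adipoq at 18.0 ± 20.9 and Cidec at 14.3 ± 17.9 came next, and Retn, Pparg, Plin1 and Lep lay between 3.68 and 0.385 CPM per kb.

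The mature genes were set against Adipoq in the 5 libraries where Adipoq had the most counts. Per kilobase, Cfd stood at 6.05 times Adipoq in CTRL library 4 of day 1, 5.93 times in EXP library 1 of day 2, and 6.67 and 5.84 times in EXP libraries 2 and 3 of day 4. It stood at 1.5 times in EXP library 2 of day 2, where Adipoq had 28 counts. Car3 stood at 4.54 to 9.26 times, Cidec at 0.613 to 2.10 times, Plin1 at 0.0390 to 0.171 times, Retn at 0 to 0.279 times and Lep at 0 to 0.0540 times Adipoq in these 5 libraries. Lpl ranged from 99.5 times Adipoq in EXP library 2 of day 2 to 2.91 times in EXP library 3 of day 4.

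The 5 genes most like the mean of the 9 tested genes were Mrap, Calr-ps, Cyp2e1, Mup7 and Mup22, out of 13439 genes compared. Their Pearson correlations over the 22 libraries, group means removed, were 0.911, 0.872, 0.859, 0.846 and 0.842, and their Spearman correlations 0.886, 0.844, 0.832, 0.747 and 0.787. Mrap, the accessory protein of the melanocortin receptor for ACTH, is a known fat cell gene. Mup7 and Mup22 belong to a family of near-identical urinary protein genes and Calr-ps is a pseudogene, so how reads were assigned to them is uncertain.

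Other genes of mature adipocytes were called mostly on day 4. Of 30 such genes, 24 were tested. The counts called higher and lower were 2 and 1 on day 1, 2 and 0 on day 2, and 7 and 0 on day 4. Of all genes 13.9% and 14.7%, 7.72% and 5.71%, and 12.8% and 9.66% were called higher and lower on the 3 days, so the counts of days 1 and 2 are near or below the share among all genes. The list had median log2 fold changes of -0.37, 0.00 and 1.03 where the medians of all genes were 0.02, 0.02 and 0.03. With genes at the floor set to their bounds the medians were -0.34, 0.00 and 1.03. Both counts of 0 had 1 gene at an unadjusted p under 0.05; for the day 2 count DESeq2 called 0 and limma voom 1, and for the day 4 count each called 1. On day 1 Dgat2, the last enzyme of triglyceride synthesis, and Acsl1, which activates fatty acids, rose by 0.69 (SE 0.19) and 0.67 (SE 0.23) on the log2 scale (edgeR adjusted p = 0.0105 and 0.0358), and Trarg1, a regulator of glucose transporter traffic, fell by 1.70 (SE 0.47, edgeR adjusted p = 0.0105). The higher count of day 1 was 1 without CTRL library 1, 2 or 3 or EXP library 4 or 5 of that day, and the lower count was 4 without EXP library 2 and 2 without EXP library 5.

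On day 2 the genes called higher among these were Mrap and Cd36. Cd36, a fatty acid transporter, held 0.149, 0.418 and 0.988 CPM in CTRL and 20.8, 4.80 and 20.2 CPM in EXP, a log2 fold change of 4.85 (SE 1.48, edgeR adjusted p = 0.0354). Mrap held 0, 0.0522 and 0 CPM in CTRL and 4.88, 0.708 and 1.21 CPM in EXP, at least 15.4-fold above the floor (edgeR adjusted p = 0.00426). The count of 2 became 1 without any library of that day but EXP library 2. The order of the EXP libraries for Mrap was that of Fabp4, with library 1 highest and library 2 lowest.

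On day 4 Acsl1 rose by 1.59 (SE 0.26, edgeR adjusted p = 5.59e-04) and Dgat2 by 0.85 (SE 0.22, edgeR adjusted p = 0.00965). Mrap held 1.34, 6.38 and 12.7 CPM in EXP, at least 51.4-fold above the floor (edgeR adjusted p = 3.22e-04), and library 1 was again the lowest. The other 4 called genes, named after their values were seen, were Pck1, Lgals12, Thrsp and Sncg. Pck1, an enzyme of glycerol synthesis in fat, held 0.0268, 3.33 and 11.5 CPM in EXP libraries 1, 2 and 3, Lgals12, a droplet galectin, 0.0268, 0.486 and 5.07 CPM, and Thrsp, a lipogenic gene, 0, 1.08 and 7.21 CPM, the same order as Adipoq. On the day 4 libraries alone 3 of the 24 genes were called higher, and on the lower side of the split 2. These genes were measured in the same EXP libraries as the list of this report and are not independent of it.

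On each day most of the 17 transcription factors that promote adipogenesis were not called. All 17 were tested, and 1 was called higher and 3 lower on day 1, 1 and 3 on day 2, and 1 and 4 on day 4, with medians of -0.09, -0.48 and -0.59. The shares called lower among all genes were 14.7%, 5.71% and 9.66%, so the 3 of 17 of day 1 are close to the share among all genes, and those called higher were 13.9%, 7.72% and 12.8%. Ebf1, a B-cell and preadipocyte factor, was the gene called higher on day 2, by 0.81 (SE 0.21, edgeR adjusted p = 0.0153), and on day 4, by 0.72 (SE 0.20, edgeR adjusted p = 0.0132). Cebpd, an early partner of the programme, held 232, 171 and 67.6 CPM in CTRL and 18.8, 50.8 and 46.8 CPM in EXP on day 2 (edgeR adjusted p = 0.10) and fell by 4.15 on day 4 (SE 0.85, edgeR adjusted p = 0.00325), from a mean of 270 to 15.3 CPM.

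Klf4 fell by 1.69 on day 2 (SE 0.35, edgeR adjusted p = 0.00397), and Klf9 fell by 0.78 on day 2 (SE 0.25, edgeR adjusted p = 0.0420) and by 1.31 on day 4 (SE 0.24, edgeR adjusted p = 0.00138). The remaining calls, named here because the counts are small, were Ebf2, Zfp423 and Zfp467 lower and Stat5a higher on day 1, Zfp423 lower on day 2, and Cebpb and Klf5 lower on day 4. Cebpa, the late partner of Pparg, was called on none of the 3 days, with means of 1.24 CPM in EXP and 2.21 CPM in CTRL on day 4 (edgeR adjusted p = 0.216).

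Genes known to restrain adipogenesis gave a mixed picture. Beside this list and those that follow, the shares of all genes called higher and lower were 13.9% and 14.7% on day 1. They were 7.72% and 5.71% on day 2, and 12.8% and 9.66% on day 4. Of 13 listed, 10 were tested, and 0 were called higher and 2 lower on day 1, 0 and 2 on day 2, and 2 and 3 on day 4, with medians of -0.90, -0.54 and -0.83. For the counts of 0 higher, 2 genes on day 1 and 0 on day 2 had an unadjusted p under 0.05, DESeq2 called 0 on both days, and limma voom called 1 and 0. Hes1, a Notch target, fell on all 3 days, by 1.05, 1.51 and 0.89 (edgeR adjusted p = 0.00196, 0.00188 and 0.0221). Zfp521 fell by 1.52 on day 1 (edgeR adjusted p = 6.62e-04), Klf2 by 1.88 on day 2 (edgeR adjusted p = 0.0349) and Tgfb1 by 1.16 on day 4 (edgeR adjusted p = 0.0410). The remaining calls of day 4, named because the counts are small, were Wnt6 lower and Dlk1 and Gata3 higher, and Dlk1, a preadipocyte surface protein, held 0.0865 to 0.435 CPM in CTRL and 7.05, 0.833 and 0.464 CPM in EXP. EXP library 1 carried most of its mean, and without it the log2 fold change was 1.45 (3.55 with it) with an edgeR adjusted p of 0.485; the call was also lost without CTRL library 2, 3 or 4.

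Few genes that act on Lpl or on its products were called, in both directions on day 1 and upward after it. Of all genes 13.9% were called higher and 14.7% lower on day 1, and 7.72% and 12.8% were called higher on days 2 and 4. Of 12 partners of Lpl and of fatty acid uptake, 10 were tested, and 2 were called higher and 2 lower on day 1, 2 and 0 on day 2, and 3 and 0 on day 4. The day 1 counts are close to the shares among all genes. Their medians were 0.31, 0.34 and 0.04, and 0.14, 0.11 and 0.04 with floor genes at their bounds. For the 0 lower on days 2 and 4, 0 and 1 genes had an unadjusted p under 0.05, DESeq2 called 0 and 0, and limma voom 0 and 1. On day 1 Lmf1 and Sel1l, both needed to fold the lipase in the endoplasmic reticulum, fell by 0.79 and 0.79 (edgeR adjusted p = 1.80e-04 and 6.84e-04). Furin, a protease that can cleave the lipase, rose by 1.19 (edgeR adjusted p = 4.68e-04). A link of these changes to the fall of Lpl was not tested. Furin rose again by 1.27 on day 2 (edgeR adjusted p = 0.00373), Mgll, which cleaves monoglycerides, rose by 2.54 on day 2 and 2.61 on day 4 (edgeR adjusted p = 0.0359 and 0.0115), and Fabp5 (days 1 and 4) and Angptl8 (day 4), named because the counts are small, were the other genes called higher. Apoc2, the activator of Lpl, had 0 counts in every library.

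PPAR-responsive genes used in many cell types changed little as a list. Of 10 listed, 9 were tested, and 1 was called higher and 3 lower on day 1, 1 and 1 on day 2, and 2 and 0 on day 4, with medians of 0.00, 0.11 and 0.23. For the 0 lower on day 4 no gene had an unadjusted p under 0.05, and DESeq2 and limma voom called 0. Plin2, the droplet protein of non-fat cells, rose by 1.82 on day 2 (edgeR adjusted p = 0.00655) and by 1.11 on day 4 (edgeR adjusted p = 0.0366), and Hilpda, a lipase inhibitor on droplets, rose by 1.07 on day 1 (edgeR adjusted p = 1.72e-04) and by 0.62 on day 4 (edgeR adjusted p = 0.0261). Cpt1a, which admits fatty acids to mitochondria for oxidation, fell on day 1 by 0.66 (edgeR adjusted p = 0.0371). Acadm, named because the counts are small, was called lower on days 1 and 2.

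Surface genes of adipocyte progenitors were all 10 tested, and 1 was called higher and 4 lower on day 1, 1 and 2 on day 2, and 1 and 3 on day 4, with medians of -0.61, -0.37 and -0.28. Pi16 fell by 1.18 on day 1 (edgeR adjusted p = 0.0476) and Cd81 by 1.00 on day 1 (edgeR adjusted p = 3.73e-04) and 0.61 on day 4 (edgeR adjusted p = 0.0405). Icam1, a marker of committed preadipocytes, rose by 0.67 on day 1 (edgeR adjusted p = 0.0377) and fell by 0.92 on day 4 (edgeR adjusted p = 0.0207), when Cd9 fell by 0.89 (edgeR adjusted p = 0.0304). Dpp4 and Cd55 were called lower on days 1 and 2 and F3 higher on days 2 and 4, all named because the counts are small. F3, the tissue factor gene that marks an adipogenesis-regulating stromal population, rose from a mean of 9.61 to 163 CPM on day 2 (log2 fold change 4.08, SE 0.60, edgeR adjusted p = 3.69e-04).

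Brown and beige fat genes gave few calls. Of 10 such genes, 8 were tested, and 2 were called higher (Dio2 and Elovl3) and 1 lower (Ppara) on day 1, 0 and 0 on day 2, and 0 and 1 (Zic1) on day 4. Elovl3 is also among the sebocyte markers read below. Its day 1 log2 fold change ran from 1.135 to 3.383 with a library left out. For the counts of 0 by edgeR on days 2 and 4, 1 gene in all, higher on day 2, had an unadjusted p under 0.05, DESeq2 called that 1 gene, and limma voom called 0. Medians were -0.17, -0.43 and -0.22. Ucp1 had too few counts to be tested. Of 7 receptors of adipokines and insulin, 1 was called higher (Adipor2) and 1 lower (Cdh13) on day 1, 0 on day 2 by edgeR, with 0 at an unadjusted p under 0.05 and 0 by DESeq2 and limma voom, and 2 lower on day 4 (Lepr and Tlr4), with medians of -0.26, -0.12 and -0.35. Lepr, the leptin receptor, fell by 1.89 on day 4 (SE 0.57, edgeR adjusted p = 0.0248).

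Many single calls in the lists above were lost when some 1 library of the day was left out. On day 1 these were Acsl1, Cpt1a, Elovl3, Fabp5, Icam1, Pi16, Ppara and Zfp467, whose largest edgeR adjusted p was 0.0988 to 0.353. On day 2 they were Acadm, Cd36, Ebf1, Klf2, Klf9, Mgll and Zfp423, at 0.0545 to 0.203. On day 4 they were Cd81, Cd9, Dlk1, Ebf1, Gata3, Hes1, Hilpda, Icam1, Klf5, Lepr, Lgals12, Mgll, Plin2, Tgfb1, Tlr4 and Zic1, at 0.0582 to 0.485.

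Markers of other cells that the sort could hold were read beside these levels. The 9 endothelial markers summed to 28.1, 56.6 and 24.4 CPM in the EXP libraries of day 4 against 4.15 to 12.2 CPM in CTRL, to 2.05 to 7.77 CPM against 0.249 to 0.808 CPM on day 2, and to 1.02 to 8.48 CPM against 5.76 to 9.04 CPM on day 1. Most of the day 4 sum was Tek at 23.5, 44.8 and 16.9 CPM, whereas Pecam1, the gene of the excluded CD31, held 1.23, 3.68 and 3.18 CPM and Cdh5 at most 0.590 CPM. Skeletal muscle markers, relevant to Car3, summed to 1.93 to 5.98 CPM in EXP and 1.69 to 3.60 CPM in CTRL on day 4, and Tnnc2 had 0 counts in every library. Of the 4 muscle markers tested, 1 was called higher on day 4, where 12.8% of all genes were. That gene was Acta1, with a mean of 0.229 CPM over the 22 libraries, and its call was lost in 0 of 7 fits with a library left out. Tnnt3 was called lower on day 2. Sebocyte markers, relevant to lipid genes of skin, were highest at 33.5 CPM in EXP library 2 of day 1 and at most 6.32 CPM in EXP on day 4. Mural cell markers were lower in EXP without overlap on days 1 and 2, at 20.1 to 45.4 against 49.2 to 92.1 CPM and 29.1 to 52.4 against 87.3 to 96.6 CPM, and held 24.8 to 66.8 against 57.4 to 122 CPM on day 4. On day 2 leukocyte markers summed to 59.2 to 84.8 CPM in EXP against 110 to 163 CPM in CTRL and keratinocyte markers to 6.29 to 7.09 against 10.5 to 43.6 CPM, whereas melanocyte markers summed to 15.2 to 37.0 against 5.97 to 14.1 CPM. Over all libraries Schwann cell markers summed to 4.48 to 17.1 CPM and mast cell markers to at most 1.10 CPM. The part of these cells in the results was not tested.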

How the data were processed

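Raw counts, deposited by the authors as 1 table, are listed by Ensembl mouse identifier with a column for each of the 22 libraries, per the file headers. Libraries were ultra-low-input and paired-end on an Illumina platform, per the labels' protocols. The build mm39 and Trimmomatic are named in the submitters' processing notes. The aligner, counting tool, annotation release and strand setting are not given in the sources used here, so overlapping genes are uncertain, though no exon of the 10 genes overlaps another gene in GENCODE M21. Symbols came from M21, which named 52081 of the 55414 identifiers, and per-length levels from its longest coding transcripts. M21 is on GRCm38, so coordinates are given only for the RefSeq promoter windows of that build.

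The deposited counts went unaltered into edgeR 4.0.16 (R 4.3.3). The filter filterByExpr, run over the 6 groups with a minimum count of 10, left 17554 genes, and TMM scaled the totals. A robust quasi-likelihood F-test with a mean per group was fitted to all 22 libraries (16 residual degrees of freedom), p-values were adjusted by Benjamini-Hochberg over all tested genes within each contrast, and calls were made at an adjusted p under 0.05. The fit was tested on simulated data first. Where a group had 3 counts or fewer in every library, the fold against 3 counts per library is given as a bound. Replicates differed by far more than sampling noise, with a chi-square per degree of freedom of at least 29.35 for every pair. Alternatives were DESeq2 1.42.0, DESeq2 size factors, unscaled totals, every gene with a count, limma 3.58.1 voom with quality weights, the replicate block, a library split covariate, single days and leaving out each library, and fits within each side of the split were chosen after seeing the data.

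The 10 genes and all lists were chosen with earlier results of these data known. From each list the text names up to 4 genes, those of highest mean CPM over the 22 libraries among genes called on at least 1 day. The genes most like the 10 were the 5 of highest correlation with their mean among tested genes averaging 1 CPM or more. Genes named beyond these rules are marked. A result that these rules would name is not reported here. Of 187 listed symbols 186 were matched by identifier.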

Additional observations from a re-analysis of the deposited data

Results flagged for a closer look

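On day 1, 4 single libraries stood apart from the others of their group by the size of the gap to the nearest library. For Lpl this was EXP library 2 at 360.1 CPM, for Cfd and Cidec CTRL library 4 at 7.775 and 2.987 CPM, and for Plin1 CTRL library 3 at 0.9301 CPM. Of 20 sets so examined, each 1 gene in 1 group of 4 or 5 libraries, 4 were picked out. A rule of 1 in 20 would give about 1 if the sets were independent and the values normal. The sets share libraries, and Cfd and Cidec correlated at 0.911, so an excess over chance is not shown.

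The EXP effect differed between day 2 and day 1 for 6 genes by edgeR's test of the difference itself. With a library left out, the call was lost in 13 of 15 fits for Plin1 and 10 of 15 for Pparg. It was lost in 6 for Lpl, 5 for Cidec, 4 for Fabp4 and 0 for Car3. On the log2 scale the effect on day 2 minus that on day 1 was 4.03 for Pparg, 3.41 for Lpl, 6.58 for Fabp4, 11.80 for Cidec, 12.16 for Plin1 and 12.51 for Car3. The sizes for Cidec and Plin1 are not bounds, since 1 arm of each day was at 3 counts or fewer in every library. The effect was above 0 in each of these genes on day 2 and below 0 on day 1 on the fitted scale. For Cidec the day 1 change ran from -5.83 to 0.56 with a library left out.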

How the results depend on the processing

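No gene of the 10 changed direction in a call under any alternative run. The count called lower on day 1 (2) was 5 with DESeq2 and 2 to 5 with each library left out. It was 1 on the day 1 libraries alone and on the upper side of the split of libraries. The lower side held only CTRL library 4 of the day 1 CTRL arm, so no count that uses that arm is given there. The count called higher on day 2 (4) was 1 with every gene that had a count and 0 to 5 with each library left out. On day 4 (8, a description) it was 5 with voom, 4 with the replicate block, 1 on the lower side of the split and 7 to 8 with each library left out. For the day 2 minus day 1 effect (6) it was 2 with every gene, 3 with voom, 1 with the block and 1 to 6 with each library left out. Within EXP (4) it was 1 with every gene, 2 with voom, 2 with the split covariate, 2 on the lower side and 1 to 3 with each library left out. Within CTRL (0 lower) it was 3 with DESeq2, 1 without TMM and 2 with voom. The cause of these shifts was not tested. Some of these settings also change the number of genes adjusted for or the number of libraries.

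Without TMM the median log2 fold change of all genes moved to 0.21, 0.49 and 0.36 on days 1, 2 and 4. The split of calls over all genes moved from 2441 higher and 2576 lower to 3397 and 1732 on day 1, from 1356 and 1003 to 4191 and 441 on day 2, and from 2248 and 1695 to 4271 and 1018 on day 4. Same-numbered CTRL and EXP libraries did not deviate together on every pair, with correlations of -0.0664 to 0.164 on day 1, -0.0623 to -0.00327 on day 2 and 0.0795 to 0.146 on day 4, so the replicate block uses a shared number only, and the within-arm changes between days could not be fitted with it. Cidec, Plin1, Lep and Retn had 3 counts or fewer in 10, 9, 11 and 10 of the 11 CTRL libraries, so lower levels there were not detectable at this depth.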
